A study of Mus musculus with 8 samples.

Results

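Open chromatin was mapped in mTEC-II, the MHC class II high fraction of medullary thymic epithelial cells, and 15465 peaks were found in both of its libraries. A replicated peak is a peak of the replicate 1 list that shares at least 1 bp with a peak of the replicate 2 list. These peaks made up 81.4% of the 19008 peaks called in replicate 1, and they covered 15334 peaks, or 55.3%, of the 27739 called in replicate 2. Each one overlapped an entry of the table that merges all peaks of the series, where they lay on 15278 of 74090 merged peaks (20.6%). The members were chosen by the peak calls of both libraries, so their number and strength are given as a description with no test.

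ATAC-seq uses a transposase that cuts accessible DNA and adds sequencing adapters, so that read ends (tags) pile up where chromatin is open. The thymi came from C57BL/6 mice and were digested with collagenase, dispase and DNase, and mTEC-II cells were sorted as CD45-, Epcam+ and MHCII high. The series also holds mTEC-I, mTEC-III and mTEC-IV, with 2 libraries for each of the 4 populations. The labels call the sorted cells enriched for mTEC-II, give no age or sex, and do not say whether replicates are separate animals, so agreement between the libraries may be technical. In a sorted population, a site open in fewer cells and a site less open in each cell cannot be told apart.

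Medullary thymic epithelial cells present self antigens to developing T cells, and cells that react too strongly are deleted or become regulatory T cells. The mature MHC class II high stage makes AIRE, a nuclear protein that raises the transcription of many genes otherwise kept to single tissues, and the costimulatory ligand CD80. Its development needs NF-kB signals received through RANK, CD40 and the lymphotoxin beta receptor. Peptides are loaded on MHC class II with the help of the invariant chain and the DM proteins.

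Of the 4 genes used as markers of this stage, each had a replicated peak at its promoter, and the 250 bases before the start of Aire, H2-Aa and Cd80 are shown because these genes mark the stage. Nfkbia was added as the NF-kB inhibitor gene with the most replicated peaks, and Wdr18 as one of the strongest replicated promoters. The sequences are from RefSeq on GRCm38.p6 and run 5′ to 3′ in the direction of the gene, whereas peak positions are on mm9, so the place of a peak within them was not determined. Capitals mark matches on either strand to 11 short patterns: the CCAAT box (CCAAT), the GC box (GGGCGG), the ETS core (CCGGAAG), the TATA box (TATAAA), the palindromic NRF1 pattern, the E-box (CACGTG), an NF-kB pattern (GGANNTTCC), an AP-1 pattern (TGANTCA), the CRE core (TGACGT), the YY1 core (AAGATGG) and a STAT pattern (TTCNNNGAA).
Aire, minus strand, chr10:78043611-78043860: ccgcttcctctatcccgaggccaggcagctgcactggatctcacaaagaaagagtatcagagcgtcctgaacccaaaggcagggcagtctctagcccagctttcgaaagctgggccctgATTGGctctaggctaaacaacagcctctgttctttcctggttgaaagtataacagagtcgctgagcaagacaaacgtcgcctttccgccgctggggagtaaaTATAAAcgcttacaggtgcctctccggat
H2-Aa, minus strand, chr17:34287824-34288073: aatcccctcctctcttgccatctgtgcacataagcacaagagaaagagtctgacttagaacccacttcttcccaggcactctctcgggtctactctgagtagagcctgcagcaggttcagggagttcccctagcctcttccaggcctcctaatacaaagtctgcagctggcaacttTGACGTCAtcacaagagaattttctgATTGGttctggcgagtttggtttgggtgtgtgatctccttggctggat
Cd80, plus strand, chr16:38458683-38458932: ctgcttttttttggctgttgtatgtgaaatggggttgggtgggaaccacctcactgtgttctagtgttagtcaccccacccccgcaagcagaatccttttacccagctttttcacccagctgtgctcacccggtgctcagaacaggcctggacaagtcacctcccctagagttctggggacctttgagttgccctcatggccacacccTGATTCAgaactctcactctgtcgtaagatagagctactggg
Nfkbia, minus strand, chr12:55492648-55492897: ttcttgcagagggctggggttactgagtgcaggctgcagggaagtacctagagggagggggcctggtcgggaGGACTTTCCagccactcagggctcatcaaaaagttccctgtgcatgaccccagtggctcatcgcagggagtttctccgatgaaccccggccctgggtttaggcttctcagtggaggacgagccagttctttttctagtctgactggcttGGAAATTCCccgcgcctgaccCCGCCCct
Wdr18, plus strand, chr10:79959902-79960151: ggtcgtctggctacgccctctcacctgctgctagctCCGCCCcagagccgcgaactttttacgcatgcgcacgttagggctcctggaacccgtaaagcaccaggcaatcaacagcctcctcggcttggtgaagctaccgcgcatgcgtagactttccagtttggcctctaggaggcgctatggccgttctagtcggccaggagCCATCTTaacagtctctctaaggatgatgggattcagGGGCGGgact

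The Aire window held TATAAA from base -29 to -24 before the start and a reverse CCAAT from -131 to -127. The H2-Aa window held overlapping matches to TGACGT on both strands between -74 and -67, and a reverse CCAAT from -48 to -44. The Nfkbia window held GGANNTTCC at -178 to -170 and, on both strands, at -29 to -21, together with a GC box. The Cd80 window held 1 match, to the AP-1 pattern, from -42 to -36. Wdr18 carried 2 GC boxes and the YY1 core, and its window had 17 CpG dinucleotides against 3 in that of H2-Aa, 3 in Cd80 and 11 in Aire. A match is a description of letters and not a measured binding site.

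The Aire promoter peak (mm9 chr10:77506240-77506368, 49 bp past the transcription start site, TSS) had a signal of 40.2 in replicate 1 and 31.4 in replicate 2. Signal is the authors' tag count per 10000000 tags, and these values rest on 14.5 and 19.5 tags, recovered from the scaling. The peak ranked 4968 and 5590 in its lists, so it lay in the upper part of both but far from the strongest loci. Cd80 had its replicated peak at chr16:38458933-38459061, -86 bp from the TSS, with 25 and 17.7, resting on 9 and 11 tags. It was the weakest of the marker promoters in both libraries. No further replicated peak lay within 10 kb of either gene.

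H2-Aa and H2-Ab1, which encode the alpha and beta chains of the class II molecule I-A, were covered by several peaks. The H2-Aa promoter (chr17:34424746-34424874, -114 bp) reached 66.5 and 35.4. A second H2-Aa peak at -8482 bp reached 54.1 and 63.6, so the order of the 2 peaks differed between the libraries. The H2-Ab1 promoter (chr17:34400041-34400169, -49 bp) reached 84.6 and 53.9. Its peaks at -1515 bp and -5365 bp reached 49.9 and 49.9, and 51.3 and 41.0. H2-Ab1 has no window in the RefSeq promoter table. The promoter peaks of H2-Aa and H2-Ab1 were also called in all of the other 6 libraries, that of Aire in 5 and that of Cd80 in 2. The label's markers were thus all open in both libraries, but calls at them were not confined to mTEC-II.

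Across the genome the 2 libraries ranked the replicated peaks alike. Signal ran from 13.9 through a median of 29.1 to 4564.1 in replicate 1, and from 9.66 through 25 to 4431.6 in replicate 2. Spearman's correlation coefficient between the libraries was 0.846 over 15465 peaks, and 97.3% of them had signals within 2-fold. The coefficient was 0.844 over the 8585 peaks within 1 kb of a TSS and 0.689 over the 6880 farther away. These coefficients are across peaks, which are not independent samples and had to be called in both lists. Replicate 1 was higher by over 2-fold at 398 peaks and replicate 2 at 17, and the median ratio of replicate 2 to replicate 1 was 0.825.

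**Figure D1:**
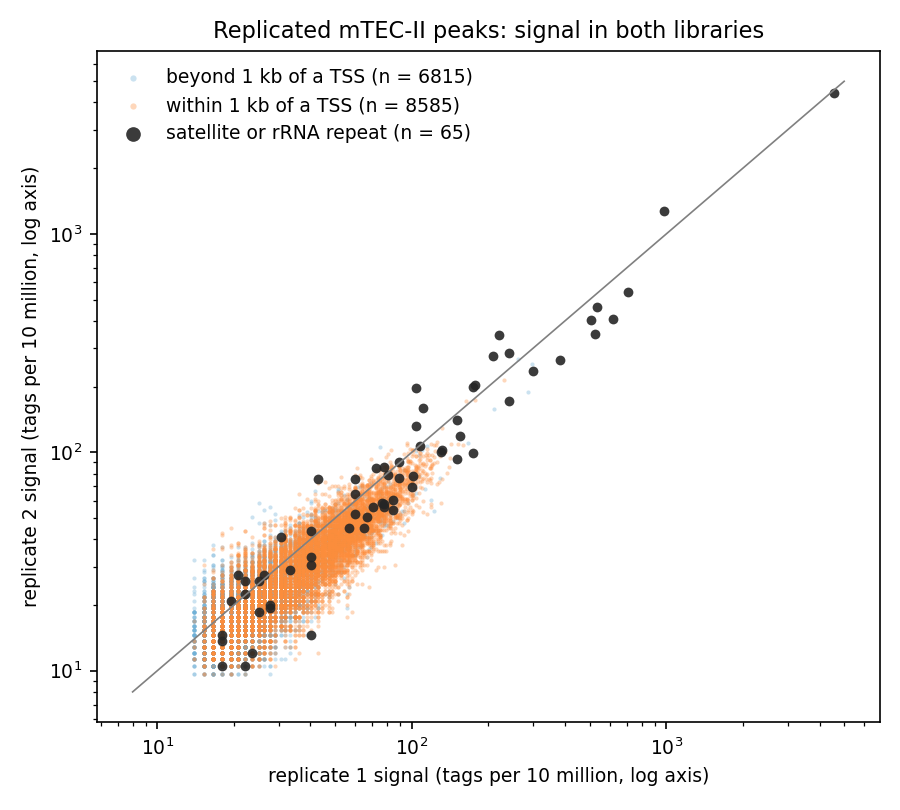
Signal of each replicated mTEC-II peak in replicate 1 (x axis) and replicate 2 (y axis), both in tags per 10000000 on log axes, with the line of equal signal. Peaks in satellite and rRNA repeats (black, n = 65) reach 4564.1 and 4431.6, while peaks within 1 kb of a TSS (orange) and beyond (blue) fill the lower range.

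The libraries differed in depth. Replicate 1 held 3606436 tags, the fewest of the 8 libraries, whose totals ran up to 10374623, and replicate 2 held 6212177. One tag was worth a signal of 2.77 in replicate 1 and 1.61 in replicate 2. The median replicated peak therefore rested on 10.5 and 15.5 tags, for a counting error of 30.9% and 25.4%, which covers counting only. The share of replicate 1 peaks that were replicated was 94.8% in the strongest of 10 equal bins by signal and 61.4% in the weakest.

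Many of the peaks left out were close to the rule. Of the 3543 unreplicated replicate 1 peaks, 978 (27.6%) lay in a merged peak that also held a replicate 2 peak, and 232 missed a replicate 2 peak by under 10 bp. Just inside the rule, 263 members overlapped by at most 10 bp, with a median signal of 29.1, and those 232 just outside had a median of 28.4. Among the strongest unreplicated peaks were the promoters of Ankhd1 (signal 123.4), Chchd7 (105.4) and Skil (102.6), for which a replicate 2 peak began 12, 2 and 18 bp away. Only 3 unreplicated peaks had no replicate 2 tag at all in the merged table. At the other end, 1601 of them (45.2%) lay over 1000 bp from any replicate 2 peak. The list also repeats itself in places: 318 members overlapped another member, 118 of them with identical coordinates, and joining overlapping members left 15306 regions.

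Most replicated peaks sat at promoters. Within 1 kb of a TSS lay 8585 of them, or 55.5%, against 24.1% of all merged peaks. The share was 44.9% among peaks called in replicate 1 alone and 20.8% among those called in replicate 2 alone. The authors' promoter class took 50.3% of replicated peaks, introns 20.1%, intergenic DNA 23.6%, exons 2.05%, 5' UTRs 1.78% and 3' UTRs 0.575%. Promoter peaks centred just before the start, with a median of -36 bp and quartiles of -92 and 18 bp. Of the remaining 6880 peaks, the median distance to a TSS was 19739.5 bp, and 703 peaks (4.55% of all members) lay over 100 kb away.

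**Figure D2:**
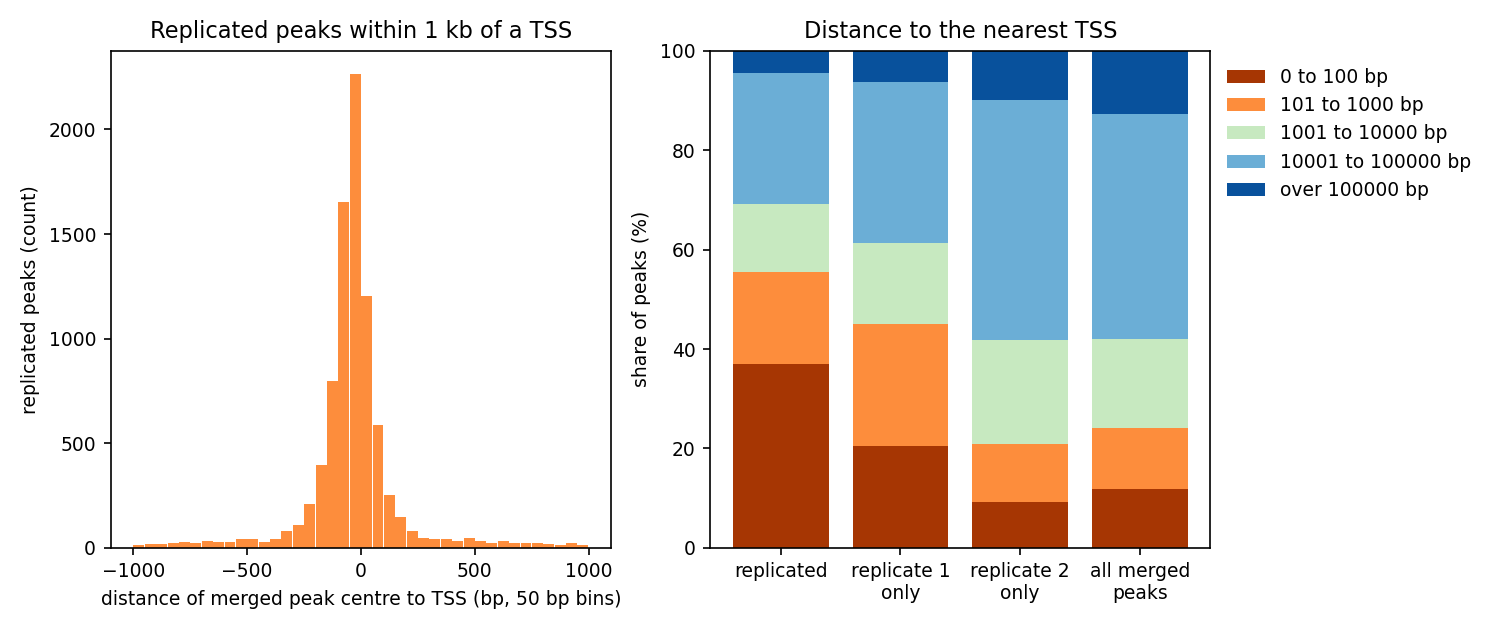
Left, the number of replicated peaks in 50 bp bins of distance from the TSS (negative is upstream). Right, the share of peaks in 5 classes of distance for replicated peaks, peaks of 1 replicate only and all merged peaks. Replicated peaks within 1 kb of a TSS have a median distance of -36 bp, taken from the merged peak. Of all replicated peaks, 55.5% lie within 1 kb of a TSS, against 24.1% of all merged peaks.

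Promoter peaks were also stronger than the rest. Their median signal was 38.8 and 32.2 in the 2 libraries, and that of peaks beyond 1 kb was 22.2 and 19.3. When members were ordered by the worse of their 2 ranks, 88.9% of the strongest of 10 bins and 22.8% of the weakest lay within 1 kb of a TSS. All replicate 1 peaks are 129 bp wide, so their signals compare without a correction for length. Peaks annotated as a CpG island numbered 758, of which 561 were beyond 1 kb of any annotated TSS, and had a median of 33.3 and 26.6. None of the strongest peaks in the authors' promoter class carried this label, so islands at such promoters may go uncounted. These counts therefore do not show what share of members lay in CpG islands, or whether islands lay mostly away from promoters.

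Promoters with and without a replicated peak differed in sequence composition. Among 14731 protein-coding genes with a single 250-base window, the 5124 with a replicated promoter peak had a median GC content of 60.8%, against 50.4% for the 9607 without one. Their windows held a median of 18 CpG dinucleotides, and the others 4. Of windows under 40% GC, 2.34% had a replicated peak, and of those over 70% GC, 56.9%. The GC box was in 66.3% of windows with a peak and 41.8% of all windows, the ETS core in 16.4% and 9.13%, the CRE core in 12% and 7.51%, and the NRF1 pattern in 10.6% and 5.19%. The E-box was in 9.23% and 6.47%. TATAAA, which the Aire window holds, was in 5.44% of windows with a peak and 13.2% of all. The AP-1 pattern, the only match in the Cd80 window, was in 3.30% and 6.27%, and the STAT pattern in 5.39% and 6.75%. The NF-kB pattern was in 3.77% and 3.65%, CCAAT in 40.3% and 36.9%, and the YY1 core in 4.12% and 4.03%. The part of GC content in these pattern shares, and in which promoters were called, was not tested.

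The strongest replicated loci were repeats. The highest peak in both libraries lay in a satellite on chromosome 2 (chr2:98507091-98507219), 1199341 bp from the TSS of its nearest gene Lrrc4c, with 4564.1 and 4431.6, or 1646 and 2753 tags. Satellites on chromosome 9 (chr9:35112976-35113104, 980.2 and 1269.3) and in an intron of Chl1 (708.5 and 544.9) came next, followed by rRNA-like repeats nearest to Pex2 (618.3 and 408.1), Axin2 (535.2 and 461.2), Cdk8 (525.4 and 349.3) and Filip1l (506.0 and 402.4). The strongest 20 peaks held 15 repeats, and 18 of the 20 were called in 5 or 6 of the other 6 libraries. Satellite and rRNA repeats exist in many near-identical copies, so reads of one copy cannot be told from those of another and the placement of these peaks is uncertain. The 65 satellite and rRNA members held 2.45% and 2.78% of the summed signal of all members.

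Outside annotated repeats, the strongest peaks were a CpG island nearest to Cr2 (chr1:197067756-197067884) at 262.0 and 268.0, a 3' UTR peak in Lars2, the mitochondrial leucyl-tRNA synthetase gene (chr9:123371046-123371174), at 298.1 and 253.5, and a CpG island nearest to Rpp21 at 287.0 and 188.3. The authors' table assigns the Lars2 peak to Limd1, whose TSS is the nearest. Peaks at the pseudogenes 2610005L07Rik (230.1 and 213.3) and Pisd-ps3 (177.5 and 173.0) share sequence with related copies and are uncertain for the same reason. In replicate 1 the Cr2, Lars2 and Rpp21 peaks stood 57.16-, 51.82- and 50.68-fold over local tags. The median fold was 47.97 for rRNA members and 18.64 for promoter members. Whether the placement of these peaks is uncertain too was not tested.

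Among promoters of protein-coding genes outside repeats, a ranking added after the repeats were seen, Hjurp led with 163.6 and 171.4. HJURP is the chaperone that deposits the centromeric histone variant CENP-A. Pknox1, a homeodomain factor, followed with 152.5 and 109.5, and Usp22, the deubiquitinase of the SAGA complex, with 142.8 and 109.5. Wdr18 had 159.4 and 107.9, and Usp20, another deubiquitinase, 126.2 and 111.1. Further down stood the ATP synthase gene Atp5g1 (122.0 and 107.9), the constitutive chaperone gene Hspa8 (134.5 and 100.6) and the splicing factor gene Sf1 (116.5 and 97.4). The strongest 20 promoters had signals between 113.7 and 163.6 in replicate 1 and between 92.6 and 171.4 in replicate 2, and each was also called in 5 or 6 other libraries. None of the MHC class II, Aire-stage or NF-kB genes was among them.

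Peaks were spread thinly over genes. The 15465 peaks had 11047 nearest genes, and 8004 of these (72.5%) had exactly 1 replicated peak, while 127 had 5 or more. A replicated promoter peak was found at 8171 genes. Zmynd8, which encodes a chromatin reader, Arhgef3, a guanine nucleotide exchange factor, and Mir101c had 8 each. At Mir101c 7 of the 8 peaks were in repeats, and at Zmynd8 the 8 peaks fell on 6 merged peaks, since 2 pairs of entries have identical coordinates. Those of Arhgef3 fell on 7 merged peaks. The 8 Zmynd8 peaks were weak, from 16.6 to 29.1 in replicate 1 and from 12.1 to 26.6 in replicate 2.

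Nfkbia, Elf2, Zfpm1, Nfia and Ptpn1 had 7 replicated peaks each, all on separate merged peaks. Nfkbia encodes the inhibitor that holds NF-kB in the cytoplasm and is itself an NF-kB target. Its peak at the TSS (chr12:56593616-56593744) had 63.8 and 69.2, and a peak at 651 bp, annotated as intronic repeat, had 74.9 and 54.7. Upstream peaks at -5311, -6613 and -13470 bp had 26.3 and 23.3, 33.3 and 27.4, and 26.3 and 22.5. Downstream peaks at 28114 and 45700 bp had 29.1 and 25, and 44.4 and 36.2. All 7 lay between 26.3 and 74.9 in replicate 1, and all were above the lower quartile of all replicated peaks in both libraries (20.8 and 17.7).

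For the other genes with 7 peaks, the signal was summed over all peaks of the gene. Elf2, an ETS family factor, had a summed signal of 239.9 and 171.5 with 3 promoter peaks and 2 repeats. Zfpm1, the GATA cofactor FOG1, had 217.8 and 173.1. Nfia, a nuclear factor I family member, had 170.4 and 161.8 with no peak within 1 kb of its TSS. Ptpn1, a tyrosine phosphatase, had 165.0 and 145.7. Mex3c, Tob1, Ywhaz, Med13l, Ptp4a2, Wee1 and Tex14 had 6 peaks each, those of Mex3c on 4 merged peaks. Assignment is to the nearest TSS, so genes in sparse regions collect more distant peaks: the farthest of Mex3c lay 608620 bp away.

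Within 10 kb of the TSS, Gm7244, Hnrnpf, Synj2 and Bcl3 had 5 replicated peaks each, those of Gm7244 on 4 merged peaks, and Mir101c, Mnt, Lmna, Nfkbia, Hook2 and Epc2 had 4. Bcl3, an atypical inhibitor of NF-kB that acts in the nucleus, had a promoter peak (chr7:20408074-20408202, -52 bp) of 26.3 and 16.1. Its 4 other peaks, at -9406, -1596, 5159 and 6317 bp, had 41.6 and 37.8, 20.8 and 20.1, 36.0 and 33.8, and 26.3 and 23.3. The promoter was thus not the strongest Bcl3 site in either library. At Hnrnpf, a gene for an RNA-binding protein, the promoter peak at 48 bp led with 59.6 and 57.1.

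Replicated promoter peaks were frequent at genes of antigen presentation. Over all 21900 protein-coding genes, 35.8% had a replicated peak within 1 kb of the TSS and 40.3% had one within 10 kb. Of 15 MHC class II genes, 12 had one within 1 kb, with a median promoter signal of 58.2 and 44.3. Cd74, the invariant chain, led with 88.7 and 86.9. The factors of the RFX complex, which binds class II promoters, had replicated promoter peaks at all of Rfx5 (88.7 and 69.2), Rfxank (74.9 and 74.9) and Rfxap (58.2 and 31.4), and the class II transactivator gene Ciita had 29.1 and 18.5. H2-Eb1 had 3 peaks, 58.2 and 53.9 at -43 bp, 56.8 and 51.5 at -912 bp and 86.0 and 63.6 at -4572 bp. The H2-DMb2 promoter peak had 51.3 and 39.4. A stronger peak that the authors' table assigns to H2-DMb2 at -9921 bp (chr17:34272359-34272487, 94.3 and 82.9) is annotated there as the 5' UTR of a transcript of its neighbour H2-DMa. By nearest TSS H2-DMa therefore counts among the genes with no replicated peak within 10 kb, although this peak lies in its annotated transcript. H2-Oa and Ctss, which encodes cathepsin S, also had none within 10 kb. Genes that share a start region can lose a peak to their neighbour, since each peak has 1 nearest gene. Of 14 MHC class I genes, 9 had a replicated promoter peak, among them H2-K1 (105.4 and 79.7), Calr (86.0 and 79.7) and Tap1 (73.5 and 50.7).

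NF-kB signalling was the list with the highest share, 20 of 23 genes within 1 kb and 22 within 10 kb, with a median promoter signal of 52.7 and 44.3. The housekeeping list, at 13 of 15, had a like share and a median of 49.9 and 44.3. Map3k14, the NIK kinase of the non-canonical arm, had 88.7 and 72.4, Relb, the subunit that arm activates, 77.6 and 78.9, and Nfkb2, its precursor partner, 69.3 and 45.1 for the stronger of 2 promoter peaks. Among receptors, Tnfrsf11a (RANK) had 36.0 and 24.1, Ltbr 29.1 and 20.9 and Cd40 25 and 26.6. The receptor promoters lay below the list's median in both libraries. Traf1 and Traf2, adaptors of these receptors, had replicated peaks within 10 kb but not within 1 kb, and Ikbkg had none. Within 1 kb of the Traf2 TSS the merged table gives 135.9 and 131.2, so its promoter cannot be called closed. For Traf1 and for Ikbkg it gives 26.3 and 16.9.

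Genes of the mature Aire stage were less covered: 12 of 25 had a replicated promoter peak and 15 had one within 10 kb, with a median promoter signal of 34.0 and 28.2. The deacetylase gene Sirt1 had 72.1 and 40.2, the kinase gene Hipk2 43.0 and 33.8 and the repressor gene Prdm1 36.0 and 30.6. Fezf2, a regulator of tissue-restricted genes that acts beside AIRE, had a peak of 23.6 and 21.7 at 4428 bp and none at its promoter. Cd86, Ccl22, Ccl19, Ccl21a, Icosl, Tnfrsf4, Hnf4g, Il7, Cldn3 and Cldn4 had no replicated peak within 10 kb. For Icosl the merged table still gives 130.3 and 88.5 within 1 kb of its TSS, for Il7 97.05 and 66.0 and for Cldn3 83.19 and 80.48. At Aire it gives 73.48 and 51.51. Cldn4 has 45.75 and 27.37 there and Hnf4g 15.25 and 9.65, while the other genes named have no value. The lack of a replicated peak therefore does not show closed chromatin.

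**Figure D3:**
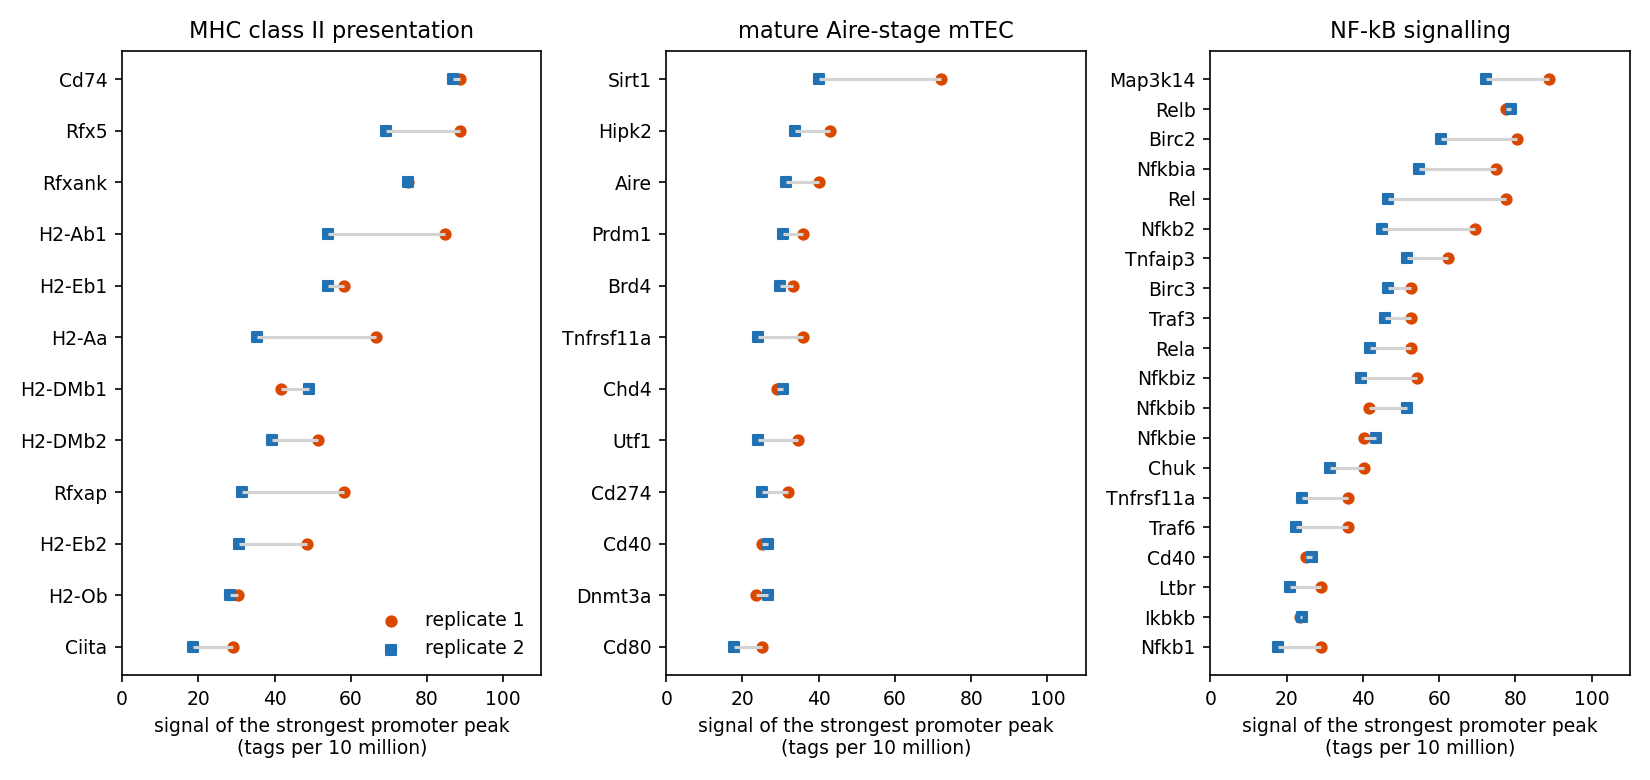
Signal (tags per 10000000) of the strongest replicated promoter peak of each gene with one, in replicate 1 (circles) and replicate 2 (squares), for 3 gene lists. Cd74 stands highest among MHC class II genes at 88.7 and 86.9, and Aire itself lies at 40.2 and 31.4.

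Of 22 genes of thymic epithelial identity, 14 had a replicated promoter peak. The highest were Stat3 (95.7 and 81.3), Epcam (54.1 and 33.0) and the epithelial factor gene Elf3 (51.3 and 35.4), with Krt8 at 33.3 and 33.8 and Pax9 at 34.7 and 44.3. Foxn1, the master regulator of thymic epithelium, had none within 10 kb, and its merged promoter signal was 12.5 and 15.3. Epithelial junction genes had 10 of 19, among them Epcam and F11r (47.1 and 48.3). Spib, an ETS factor made by mature mTEC, had 44.4 and 26.6.

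The tissue-restricted antigen genes, many of them targets of AIRE, were nearly without promoter peaks. Mbp, a myelin gene, was the only 1 of 29 with a replicated promoter peak (30.5 and 23.3), and Mog and Apoa1 had one within 10 kb. Genes of cornified epithelium had 1 of 20, the transcription factor gene Ovol1, and tuft cell genes 0 of 20. Both shares lie below 35.8%. The lowest signal of any called peak was 12.5 in replicate 1 and 8.85 in replicate 2, and calls also needed a 4-fold minimum over local tags. Weaker openings were therefore not called. Within 1 kb of tuft gene starts the merged table gives values from 0 and 0 at Ascl2 to 42.98 and 28.17 at Sox9. In the cornified list, Sprr1a has 29.11 and 38.63 there and Krtdap 2.77 and 1.61, both without a replicated promoter peak.

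Markers of other cells that a thymic sort could hold were mostly without promoter peaks. Thymocyte genes had 0 of 14, B cell genes 0 of 8, mesenchyme genes 0 of 12 and endothelial genes 0 of 10, against 35.8% of all protein-coding genes. The merged table still gives 48.52 and 40.24 within 1 kb of the Bcl11b TSS and 36.05 and 39.44 for Tcf7. The other thymocyte genes have no value there. A count of 0 therefore does not show that every such promoter was closed. Myeloid and dendritic genes had 2 of 13, Flt3 (18.0 and 16.9) and Zbtb46 (55.5 and 29.0 for the stronger of 2 peaks), and pan-leukocyte genes 1 of 6, Ikzf1 (27.7 and 12.9). Within 10 kb of the TSS the counts were 1 each for the thymocyte, B cell, mesenchyme and endothelial lists and 2 of 13 for the myeloid and dendritic list. The pan-leukocyte list had 3 of 6 within 10 kb, against 40.3% of all protein-coding genes, with Coro1a (29.1 and 30.6) and Vav1 (16.6 and 19.3) beside Ikzf1. The part of such cells in the landscape was not tested.

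**Figure D4:**
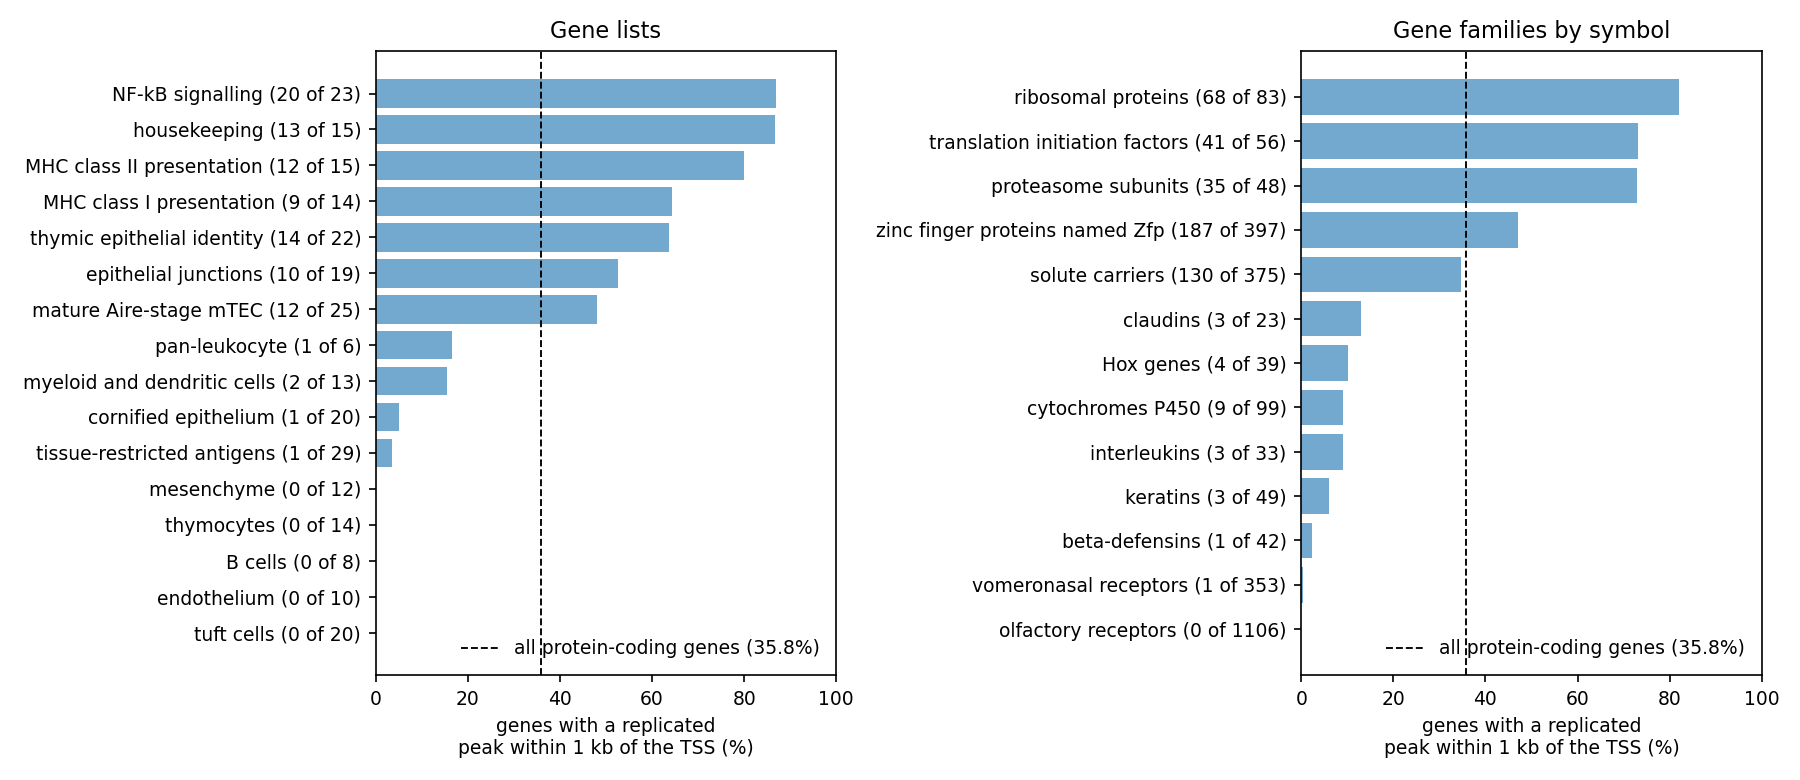
Share of genes (%) with a replicated peak within 1 kb of the TSS for 16 lists (left) and 13 families named by symbol (right), with counts in the labels and a dashed line at 35.8% for all protein-coding genes. NF-kB, housekeeping and MHC class II genes stand highest among lists and ribosomal protein genes among families, while tuft cell genes and olfactory receptors have 0.

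Families named by symbol ran from nearly full to empty. Ribosomal protein genes had replicated promoter peaks at 68 of 83 (81.9%), translation initiation factors at 41 of 56 and proteasome subunits at 35 of 48. Zfp zinc finger genes had 187 of 397 (47.1%) and solute carriers 130 of 375 (34.7%), the latter near the share of all genes. Keratins had 3 of 49, namely Krt14, Krt17 and Krt8, claudins 3 of 23, Hox genes 4 of 39 and cytochromes P450 9 of 99. Olfactory receptor genes had 0 of 1106 and vomeronasal receptors 1 of 353.

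Neighbouring peaks were joined into clusters where they lay within 12.5 kb of each other. This gave 12495 clusters, of which 10266 held a single peak, 52 held 5 or more and 2 held 10 or more. The cluster with the most peaks, 11 over 78930 bp (chr9:107436280-107515209), ran from Tmem115 through Rassf1 and Hyal1 to Sema3b and summed to 475.5 and 362.3. A histone gene cluster (chr13:23622886-23678002) held 10 peaks, 9 of them at promoters of Hist1 genes, with 352.1 and 343.7. Next came 9 peaks around Prss16, a thymus-specific serine protease gene, and Hist1 genes, then 8 from Atp5d to Cirbp and 8 around Cd151. The class II region from H2-Aa to H2-Eb1 (chr17:34424746-34442840) held 5 peaks in 18095 bp, with 321.6 and 268.0. By summed signal, the top 8 clusters all held satellite or rRNA repeats.

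Chromosome 11 held the most replicated peaks, 1253, and the X chromosome the fewest, 210. Per 100 protein-coding genes the X had 21.7, and the autosomes between 54.7 and 89.7. On the X, 76.2% of replicated peaks lay within 1 kb of a TSS. The labels do not give the sex of the mice, and the part of X chromosome number in these counts was not tested.

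Many replicated peaks were also called in the other populations. All of the other 6 libraries called an overlapping peak at 6159 members (39.8%), and none did at 641 (4.14%). Of the members called everywhere, 79.9% lay within 1 kb of a TSS, and of those in no other list 9.20%. The overlap with single lists ran from 53.2% for mTEC-III replicate 1, the shortest list with 10525 peaks, to 84.6% for mTEC-I replicate 1, the longest with 44288. When each other list was reduced to the length of the shortest, 28.5% of members were called in all 6.

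**Figure D5:**
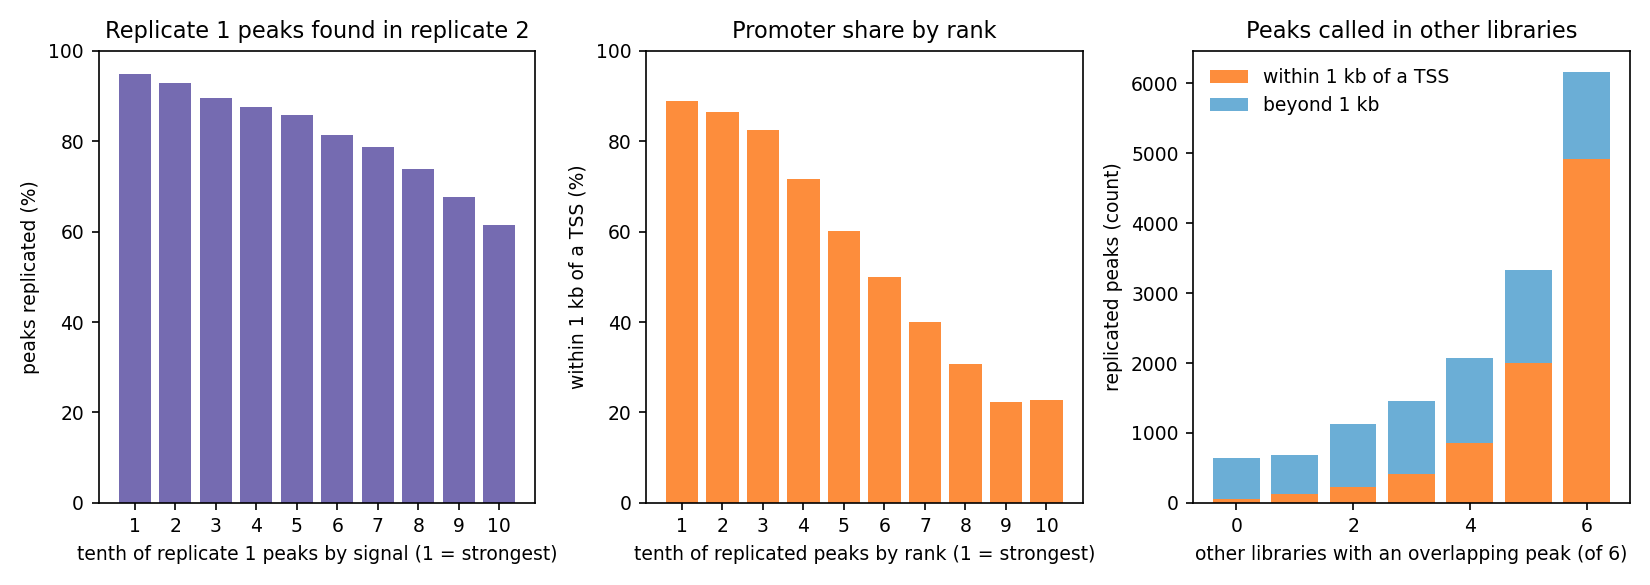
Left, the share (%) of replicate 1 peaks that were replicated, by 10 bins of signal. Middle, the share (%) of replicated peaks within 1 kb of a TSS, by 10 bins of rank. Right, the number of replicated peaks by how many of the other 6 libraries called an overlapping peak. Replication falls from 94.8% to 61.4%, the promoter share from 88.9% to 22.8%, and 6159 peaks are called in all 6.

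The 641 members in no other list were weak, with a median of 19.4 and 15.3. The strongest of them, picked out after their values were seen, lay at the pseudogene 6820431F20Rik (47.1 and 46.7), in an intron of the RNA helicase gene Ddx5 (45.8 and 37.8) and at the promoters of Caskin2 (61.0 and 35.4) and Trrap (48.5 and 34.6). An intronic peak of Nfkbie, an NF-kB inhibitor gene, reached 34.7 and 41.9 at 2380 bp, beside a promoter peak of 40.2 and 43.5. Members in no other list were nearest to other genes with many peaks too, at Zfpm1 (34.7 and 29.8, 3060 bp) and Lmna (40.2 and 29.0, -9389 bp). A peak missing from a list may still have tags there, so these are differences in calling. Whether accessibility differs at these sites was not tested.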

How the data were processed

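The submitters' processing notes name bcl2fastq 2.15.0.4, Picard 1.108, HOMER without a version and the mm9 genome, while aligner and any shift of read ends are not given in the sources used. Peaks come from HOMER findPeaks run by the authors separately for every library, per the file headers, with fragments set to 300 bp, an FDR of 0.001 and a 4-fold minimum over the local 10000 bp. The deposited lists give a signal in tags per 10000000, a findPeaks score and a ratio, the fold over local tags. The deposited merged table gives a signal per library, with a higher median than in the lists for the same peaks (58.2 and 47.5 for members); the cause was not tested. Its distance to the TSS and nearest gene, both from the authors, were given to each member from the merged peak it overlapped most.

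Overlaps were computed in Python 3.11.15 with pandas 2.3.3 and tested on simulated intervals. Peaks were ranked by the worse of their ranks in both lists. Genes are named by markers, the 20 strongest peaks, the 15 genes with most peaks (10 within 10 kb), the largest clusters, the 5 strongest unreplicated peaks, up to 4 genes per list by summed signal within 10 kb, and the MHC class II, Aire-stage and NF-kB genes without a peak. Others were named after their values were seen: Foxn1, Spib, Pax9, the RFX genes, Ciita, the receptors, Traf genes, some strong promoters and the peaks in no other list. Members and lists were chosen with earlier results of these data known. No test was run, since the peak calls that would be tested chose the members.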

Additional observations from a re-analysis of the deposited data

How the results depend on the processing

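The number of replicated peaks ranged from 10908 (centres within 50 bp) to 16443 (a replicate 2 peak in the same merged peak, an alternative chosen after seeing the data), and the promoter share from 50.3% to 60.2% over settings that keep both libraries. Either library alone gave 19008 to 27739 peaks, a promoter share of 39.99% to 53.5%, and 10 to 13 peaks at the gene with most. Each kept 19 of the 20 strongest peaks. The higher counts and the lower promoter share are those of replicate 2 without replicate 1. With both libraries the most peaks at a gene was 8. Without repeats it was also 8, reached by Zmynd8, whose 8 entries fell on only 6 merged peaks. Within 10 kb the most peaks at a gene was 5. Of the 20 strongest peaks, 5 stayed without repeats and 0 among promoters of protein-coding genes outside repeats, rankings chosen after seeing the data. With other lists reduced to the shortest, 28.5% of members were called in all 6 other libraries. Ranking by findPeaks score kept 18 of the 20 strongest and by merged signal 16. No paired analysis was possible because no result comes from a test and only 1 population is described. Depth limits the landscape to sites with several tags in the shallower library.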
